A study of Populus cathayana with 4 samples.

Results

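The sex difference in the UV-B response of poplar leaves was measured here as a ratio of ratios. For each entry of a tag count table, the ratio of ambient to reduced UV-B in females was divided by the same ratio in males. The entries, called genes here, were those with at least 10 tags summed over the 4 libraries, which kept 10741 of 19100. Each count was scaled by the library total printed in its column header, and again with TMM factors, which correct for a few abundant genes or a shift shared by many. A log2 ratio of ratios above 0 says that the female ratio was the higher of the pair.

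Populus cathayana is a dioecious poplar, with male and female flowers on separate trees. Potted greenhouse cuttings of both sexes received either ambient or decreased (here called reduced) solar UV-B over 100 days, and the fourth leaf that had fully expanded was taken. Each of the 4 combinations of sex and light gave 1 library, from an equal mix of RNA of 9 plants. The labels speak of 3 biological replicates at extraction, which are not separate in the files. With 1 pooled library per group there is no replicate error, no p-value is given, and every value compares libraries. Libraries were sequenced on separate lanes, so lane and group cannot be told apart.

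UV-B is the short-wave part of sunlight that reaches plants. It damages DNA and proteins, and it is also a signal. The photoreceptor UVR8 senses it, acts with the ubiquitin ligase COP1, and induces flavonoids, which absorb UV in the leaf epidermis, together with repair and antioxidant enzymes. In trees with separate sexes, males and females often differ in growth and in the allocation of carbon and nitrogen to defence, which is why a response may be compared between them.

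The table lists 624926 to 722533 tags per library, which is 14.4% to 17.2% of the header totals. The highest share and the most entries at 0 (7001 of 19100) both belonged to the ambient male library. Since counts of 1 do not occur, an entry at 0 may hide a single tag. As a check of the leaf label, the 20 antenna, Rubisco and plastocyanin genes found by description summed to between 6964 and 8643 CPM (counts scaled to a common library total, with no length correction) in the 4 libraries, with 1 or 2 of them at 0. The 15 xylem and fibre genes summed to 75.1 CPM (reduced) and 20.3 (ambient) in females and to 110 and 75.8 in males, with 0 to 3 at 0. The 5 MADS-box genes taken as floral summed to between 86.2 and 161 CPM, of which MADS9 (Potri.002G105600.1) alone held between 83.8 and 148. The 57 genes of dividing cells summed to between 496 and 665, and no phloem gene was matched. In bulk leaves, fewer cells of a type and less RNA per cell cannot be told apart.

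A gene was called where the whole exact 95% counting interval of its ratio of ratios lay beyond 2-fold. By header totals 197 genes (1.83%) were called higher in females, and 205 (1.91%) were called lower. Together they were 3.74%. With TMM factors, 258 (2.4%) were higher and 141 (1.31%) lower, 3.71% together, and with DESeq2 size factors 259 (2.41%) and 135 (1.26%), 3.67% together. The change of scaling added 0.20 to every log2 ratio of ratios and moved the median over all genes from -0.17 to 0.02. The share of calls that were higher in females went from 49.0% to 64.7%. All 197 higher calls were also made with TMM factors, which added 61, while 64 of the lower calls ended. Calls below therefore hold for both scalings unless an exception is named, while values and medians between -0.20 and 0 by header totals change sign with TMM factors. Below, pairs of tags are given as reduced and then ambient UV-B. Intervals cover counting error only, and tags were copied by PCR without molecular identifiers, so spread between pools is not in them.

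Many calls rest on few tags. Of the higher calls 98 had a listed 0 in at least 1 library, and of the lower calls 72 did. With every listed 0 set to 1 tag, 114 higher and 157 lower calls were left. The share called was 2.92% among genes with 10 to under 30 tags and 7.63% among the 393 genes with 1000 tags or more. The nearer interval limit of the last gene inside the margin was 1.003 on the log2 scale and that of the first gene outside it was 0.998, among genes with at least 50 tags in 1 library.

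**Figure D1:**
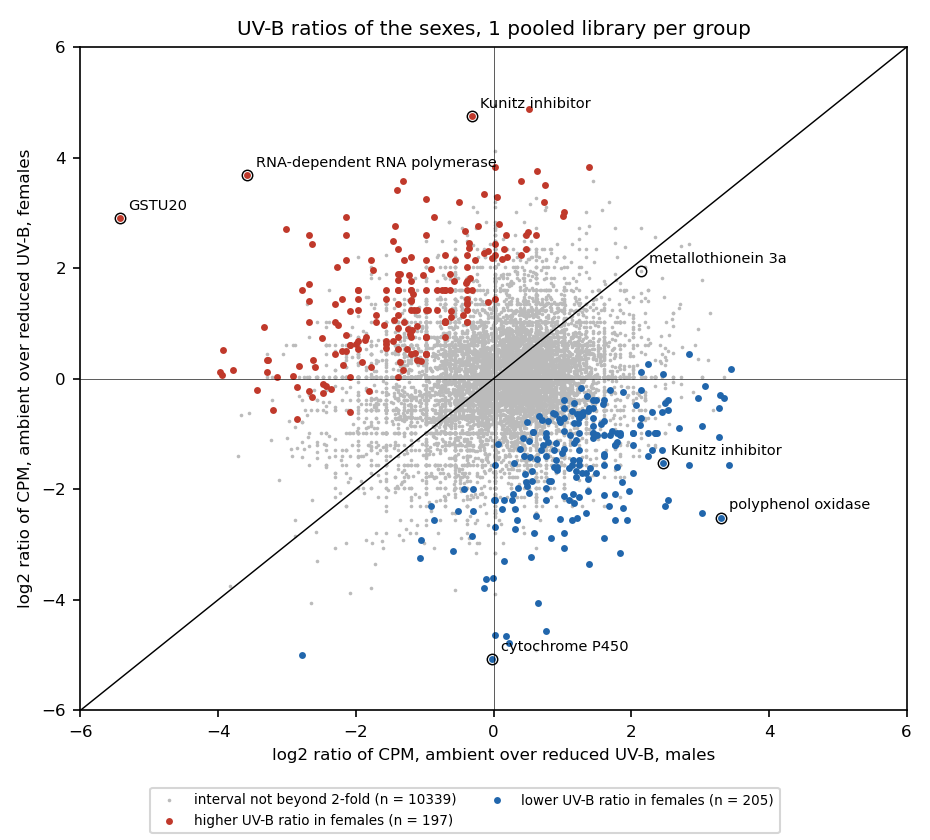
Log2 ratio of CPM under ambient over reduced UV-B in males (horizontal axis) and in females (vertical axis) for the 10741 genes, with 0 counts set to 3 tags; the diagonal marks equal ratios. Red points are the 197 genes called higher in females and blue points the 205 called lower, and they lie on either side of the diagonal, with GSTU20 and polyphenol oxidase farthest into opposite corners.

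The called genes were sorted by what each sex did. Of the higher calls, 101 (51.3%) had opposite UV-B ratios in the sexes, both past 1.5-fold, females upward and males downward. In 44 the female ratio alone passed 1.5-fold, in 43 the male ratio alone, and 9 were in the remaining class. Of the lower calls, 128 (62.4%) were opposite, 42 had only the female ratio past 1.5-fold, 29 only the male ratio, and 6 were in the remaining class. Over all genes 10.6% were opposite, but a large ratio of ratios favours that class by its construction, so nothing is read from the contrast. The female over male ratio crossed 1 between reduced and ambient UV-B in 146 of the higher calls and 150 of the lower ones, so that the sex with more tags was not the same under the 2 lights. Over all genes 35.1% crossed, and this contrast too is favoured by a large ratio of ratios. The library farthest from the mean of the other 3 was females under reduced UV-B in 59 of the 197 higher calls (29.9%, against 22.7% of all genes) and males under ambient UV-B in 55 (27.9%, against 25.7%). For lower calls it was most often the ambient female library, in 80 of 205 (39.0%, against 25.3%).

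**Figure D2:**
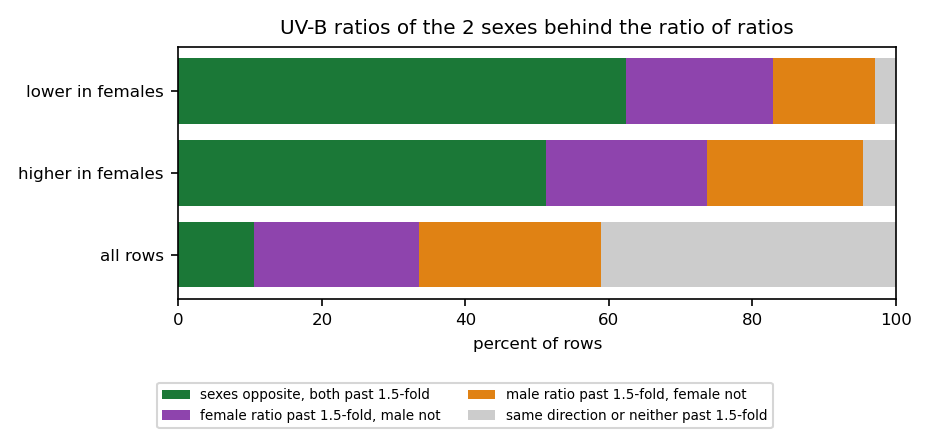
Percent of genes (horizontal axis) in each of the 4 patterns of within-sex UV-B ratios, for all genes and for the genes called higher or lower in females by header totals. Green marks opposite ratios past 1.5-fold in both sexes, 51.3% of the higher and 62.4% of the lower calls.

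The genes with the highest ratios of ratios were of many kinds and are given one by one. The tau class glutathione transferase GSTU20 (Potri.008G175000.1), which joins glutathione to reactive compounds, had 21 tags in females under reduced UV-B and 155 under ambient UV-B. Males had 131 and 3. The sexes thus exchanged places, and the log2 ratio of ratios was 8.33 (counting interval 6.51 to 10.69). It was the highest among the genes named here. GSTU13 (Potri.008G175100.1), the next number in the gene identifiers, had 102 and 160 tags in females and 84 and 158 in males, and its value was -0.27 (interval -0.81 to 0.28).

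The gene Potri.006G253500.1 codes for an RNA-dependent RNA polymerase, of an enzyme class that makes double-stranded RNA for silencing. It had 3 and 38 tags in females and 85 and 7 in males. Its log2 ratio of ratios was 7.26 (interval 5.07 to 9.79), again with the sexes exchanged. The other 3 genes described as RNA-dependent RNA polymerases were not called. The 12 RNA silencing genes, a list chosen after the values were seen, had a median of -0.89 with 10 below 0, and 2 calls higher and 0 lower. Among all genes the median was -0.17, with 1.83% called higher and 1.91% lower. A Kunitz-type trypsin inhibitor (Potri.001G309900.1), a leaf protein that blocks digestive proteases of insects, had 2 and 53 tags in females and 207 and 163 in males. Here the male libraries were both above the female ones, and the value of 5.07 (interval 3.10 to 8.17) rests on the 2 tags of the reduced female library. The gamma class glutathione transferase EF1Bgamma2 (Potri.004G226300.1), related to a subunit of a translation elongation factor, had 71 and 76 tags in females, and 48 and 0 in males. Its value was at least 4.10 with the 0 set to 3 tags.

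The cytochromes P450 are oxidising enzymes of hormone and secondary metabolism, and 3 were among the highest. Potri.001G270600.1 had 11 and 106 tags in females and 48 and 49 in males, with a log2 ratio of ratios of 3.24 (interval 2.11 to 4.44). Potri.007G115500.1 had 13 and 47 in females and 231 and 111 in males, a value of 2.91. Potri.006G141400.1 had 23 and 20 in females and 126 and 24 in males, a value of 2.19. The reduced female library stood farthest from the others in the first and the second, where it was low, and the reduced male library in the last, where it was high.

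A NAC domain factor (Potri.019G031400.1), of a family active in stress, ageing and wall formation, had 14 and 27 tags in females and 101 and 33 in males, a log2 ratio of ratios of 2.56 (interval 1.38 to 3.76). A Ycf1-like gene (Potri.011G073900.1) had 109 and 97 in females against 133 and 18 in males, a value of 2.71. Ribosomal protein S3 (Potri.012G047500.1) had 948 and 562 in females and 1446 and 197 in males, a value of 2.12 (interval 1.85 to 2.39). In both, the male library under ambient UV-B stood low. Both descriptions name genes usually carried by organelle genomes, as does acetyl-CoA carboxylase beta subunit (Potri.013G141100.1), with 245 and 268 in females, 357 and 141 in males and a value of 1.47, named after its value was seen. Among all 62 genes whose best hit is an organelle reference or names the chloroplast, 4 were called higher and 2 lower (6 and 0 with TMM factors), with a median of 0.14. The lower ones were Potri.009G055200.1, a protein kinase (-2.23), and Potri.005G187200.1, described as nad7 (-1.92). By header totals 1.83% of all genes were called higher and 1.91% lower. Among genes with at least 100 tags it was 2.24% and 2.88%. The 62 genes had a median of 247 summed tags, against 47 over all genes.

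Among genes without an informative description, the highest 2 were Potri.002G196100.1, with 85 and 120 tags in females and 31 and 2 in males (4.45), and Potri.006G058600.1, with 2 and 58 in females and 27 and 38 in males (4.36). Only 16.2% of the higher calls and 20% of the lower calls had an informative description, against 15.8% of all genes tested.

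**Figure D3:**
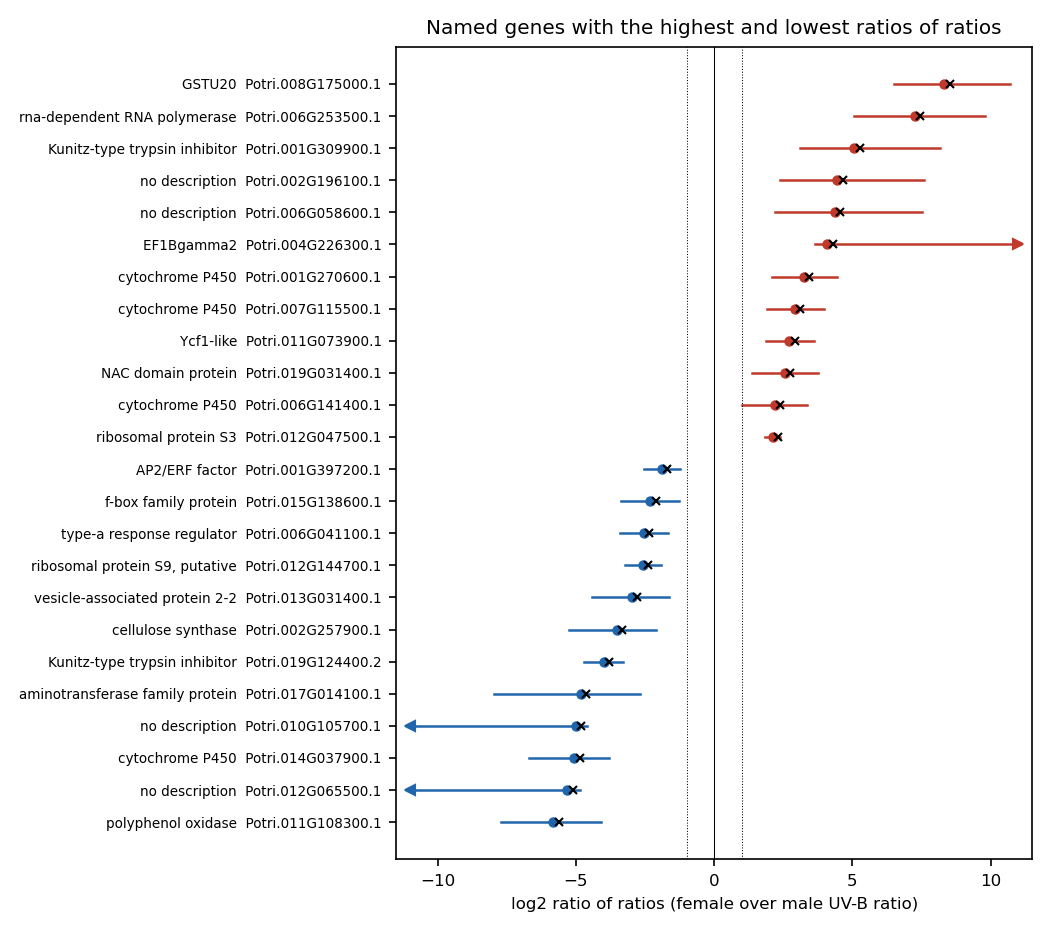
Log2 ratio of ratios (horizontal axis) of the named genes with the highest and lowest values, by description and identifier. Points are values by header totals with exact 95% counting intervals as lines, and crosses are values with TMM factors. Arrows mark intervals open to one side through a 0 count, and dotted lines mark 2-fold. Values run from GSTU20 at 8.33 to polyphenol oxidase at -5.82. Only genes called under both scalings were admitted, so that they keep their side is set by the choice.

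The genes with the lowest ratios of ratios were as mixed. A polyphenol oxidase (Potri.011G108300.1), which turns phenolics of wounded leaves into reactive quinones, had 29 and 5 tags in females and 13 and 126 in males. The female library under ambient UV-B was the lowest and the male one the highest, for a log2 ratio of ratios of -5.82 (interval -7.71 to -4.09). The other 2 polyphenol oxidases were not called: Potri.001G388900.1 had a value of 0.29 and Potri.011G047300.1 of -1.26. Another Kunitz-type trypsin inhibitor (Potri.019G124400.2) had 76 and 26 tags in females and 372 and 2014 in males, a value of -3.99 (interval -4.71 to -3.30). Males had more of it under either light.

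Cytochrome P450 Potri.014G037900.1 had 171 and 5 tags in females against 647 and 628 in males, a log2 ratio of ratios of -5.06 (interval -6.70 to -3.79). An aminotransferase (Potri.017G014100.1) had 51 and 2 in females and 36 and 40 in males (-4.83). A cellulose synthase (Potri.002G257900.1), which spins the glucan chains of the wall, had 63 and 5 in females and 97 and 88 in males (-3.52, interval -5.24 to -2.12). In these genes the male libraries lay close together and the female library under ambient UV-B stood alone. The xylem and fibre genes, this cellulose synthase among them, were lowest in the same library (20.3 CPM in sum), and their part in the result was not tested.

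Ribosomal protein S9 (Potri.012G144700.1) had 184 and 43 tags in females and 93 and 130 in males, with a log2 ratio of ratios of -2.58. A vesicle-associated protein (Potri.013G031400.1) had 28 and 8 in females and 37 and 83 in males (-2.98). An F-box protein (Potri.015G138600.1), of a family that selects proteins for ubiquitination, had 44 and 20 in females and 32 and 72 in males (-2.31). An AP2/ERF factor (Potri.001G397200.1) had 60 and 51 in females and 114 and 362 in males (-1.90, interval -2.56 to -1.25). In the last gene females hardly differed between the lights, whereas in the other 3 the sexes went opposite ways. Without a description, Potri.012G065500.1 (72 and 0 in females, 44 and 73 in males) and Potri.010G105700.1 (84 and 0, 59 and 68) were lowest, at most -5.32 and at most -5.02 with the 0 set to 3 tags.

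**Figure D4:**
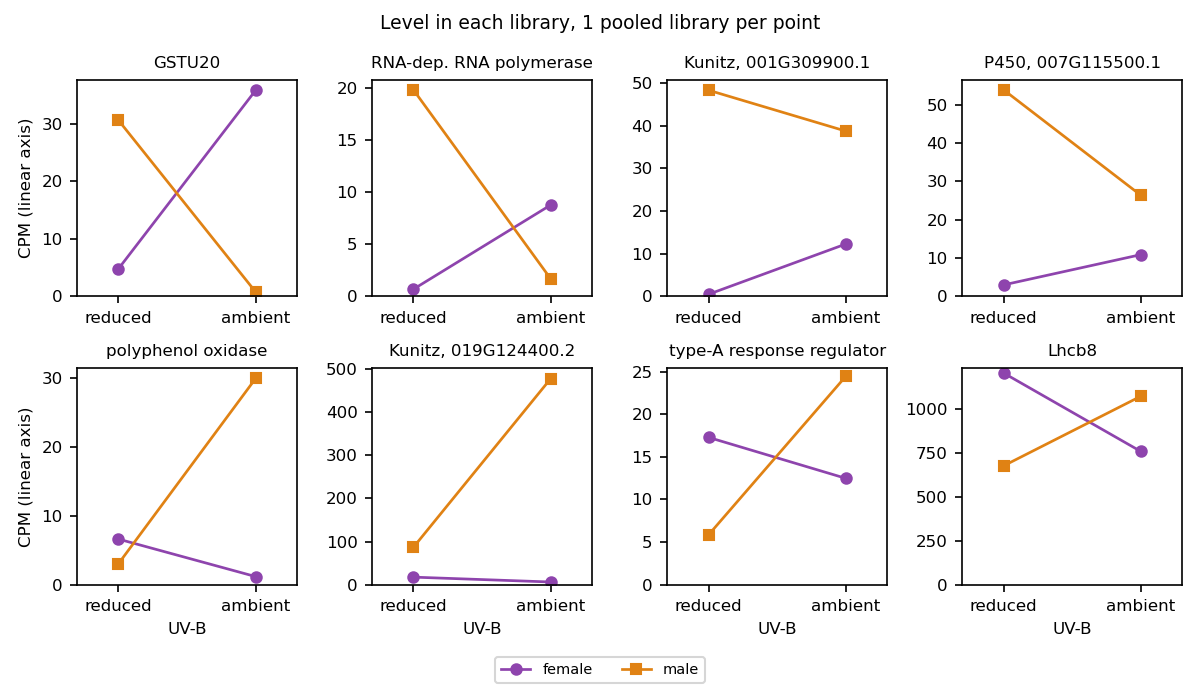
Level in CPM (vertical axis, linear, from 0, with its own range in each panel) under reduced and ambient UV-B for 8 genes; purple circles are females and orange squares males, 1 pooled library per point. The lines cross for GSTU20, the RNA-dependent RNA polymerase, polyphenol oxidase, the type-A response regulator and Lhcb8, and do not cross for the other 3 genes.

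Gene lists were built from words in the descriptions, and the 26 with at least 5 members are given by counts and medians, beside 3.74% called and a median of -0.17 over all genes (0.02 with TMM factors). Medians use 0.5 added to each count. Of the 26 lists, 8 had no call by header totals.

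Among defence genes, the 10 Kunitz-type inhibitors had 1 call higher and 2 lower. Beside the pair described, Potri.004G000400.1 was called lower, with 15 and 6 tags in females and 6 and 29 in males (-3.60). The list median was 1.005, and 3 members had 0 tags in at least 1 library, so it rests on few tags. The second most abundant member, KPI-C1 Potri.019G124600.1, had 129 and 129 in females and 476 and 1033 in males, a log2 ratio of ratios of -1.12 whose interval, -1.52 to -0.72, did not clear 2-fold. The other 10 defence proteins held the single polyphenol oxidase call. Their most abundant member, a thaumatin (Potri.001G102400.1), had 92 and 147 in females and 716 and 869 in males (0.39).

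The 78 immune receptor genes, mostly of the NBS-LRR type that detects pathogen proteins inside the cell, had 3 calls higher and 0 lower, with a median of 0.32. A disease resistance protein (Potri.012G074700.1) had 64 and 136 tags in females and 75 and 48 in males, a log2 ratio of ratios of 1.73 (interval 1.01 to 2.44). The other 2 calls had at most 15 tags in a library and a listed 0.

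Among detoxification and redox genes, the 16 glutathione transferases had 2 calls higher and 0 lower, with a median of 0.98. With TMM factors GSTF4 (Potri.T035400.1) was also called, with 394 and 525 tags in females and 988 and 603 in males (1.12 by header totals). The most abundant, GSTF1 (Potri.002G015100.1), pointed the other way without a call, with 1516 and 1428 in females and 551 and 984 in males (-0.93). The 30 thioredoxins and glutaredoxins, thiol reductants, had 0 calls and a median of -0.05. Metallothionein 3a (Potri.011G118900.1), a metal-binding protein, went from 1173 to 4457 tags in females and from 486 to 2104 in males. Its log2 ratio of ratios was -0.19 (interval -0.36 to -0.02), so that at this depth the UV-B ratios of the sexes differed by less than 2-fold. Both sexes had more tags under ambient UV-B, and females had more than males under either light. Of 12 antioxidant genes, 1 peroxidase (Potri.003G214700.1) was called lower, with 21 and 3 in females and 25 and 37 in males (-3.38). The most abundant member, type II peroxiredoxin Potri.018G083500.1, went the other way without a call. It had 694 and 993 in females and 479 and 523 in males (0.39, interval 0.16 to 0.62). The 2-cys peroxiredoxin Potri.016G072100.1, a chloroplast peroxide reductase, had 215 and 78 in females and 425 and 357 in males. Its value of -1.21 had an interval of -1.66 to -0.78, which did not clear the margin.

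The phenolic pathways had 1 call over the 2 lists together, near the share over all genes. The 15 flavonoid genes, the classic UV-B screen, had 0 calls and a median of -0.11. Their 3 chalcone synthases, which start the flavonoid branch, had log2 ratios of ratios of -0.80 (Potri.003G176800.1), -0.10 (Potri.001G051600.1) and -0.22 (Potri.001G051500.1). All 3 intervals included 0, the widest from -1.59 to 1.15. That of Potri.003G176800.1, from -1.76 to 0.15, also reached past 2-fold. At this depth a difference between the sexes in the UV-B ratio was therefore not resolved for them. The 23 phenylpropanoid and lignin genes had 1 call higher, a 4-coumarate-CoA ligase (Potri.017G034900.1) with 0 and 5 tags in females and 11 and 0 in males. Phenylalanine ammonia-lyase (Potri.016G091100.1), the entry enzyme, had 242 and 174 in females and 468 and 515 in males, a value of -0.62 (interval -0.96 to -0.27).

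Of the 14 cell wall genes, 2 were called lower, the cellulose synthase above and a pectinesterase (Potri.014G149700.1), which removes methyl groups from pectin. The pectinesterase had 15133 and 8872 tags in females and 9582 and 15347 in males, a log2 ratio of ratios of -1.45 (interval -1.51 to -1.40) in one of the most abundant transcripts of the table. XTH-6 (Potri.006G071200.1), which cuts and rejoins xyloglucan, was called higher with TMM factors alone, with 105 and 49 in females and 138 and 17 in males (1.92 by header totals). The list thus held calls on both sides. The 33 glycosyltransferases had 0 calls higher and 3 lower (2 with TMM factors), and a median of -0.90, the lowest of the 26 lists. Each of the 3 had a listed 0 and at most 48 tags, as in Potri.016G086400.1, with 22 and 0 in females and 48 and 38 in males.

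The 27 photosystem and antenna genes had 1 call lower and a median of -0.47. Lhcb8 (Potri.008G067300.1), a chlorophyll-binding antenna protein of photosystem II, had 5288 and 3276 tags in females and 2892 and 4508 in males. The sexes went opposite ways, with a log2 ratio of ratios of -1.33 (interval -1.43 to -1.24). The most abundant member, Lhca3 (Potri.014G172400.1), had 9324 and 9060 in females and 5837 and 7362 in males (-0.38). Of the 16 antenna genes, a list chosen after the values were seen, 10 had values below 0 with 0.5 added to each count. Their median was -0.52. The median over all genes, -0.17, was also below 0, so nothing is read from the count of 10. Among the 10 were Lhcb1 Potri.011G079500.1 at -0.57 and Lhcb2 Potri.014G165100.1 at -1.10. Lhcb2 Potri.002G221400.1, with 4965 and 4401 in females and 8209 and 6614 in males, had 0.13.

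**Figure D5:**
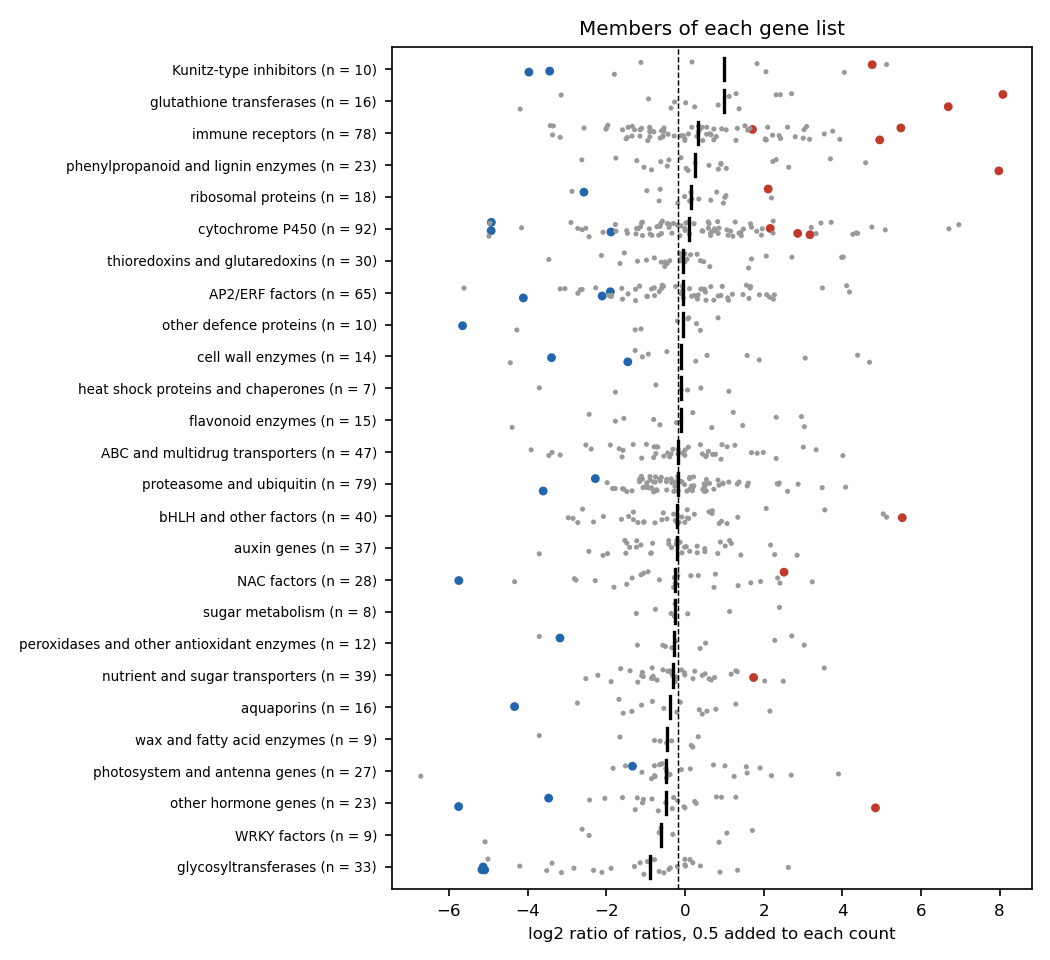
Log2 ratio of ratios with 0.5 added to each count (horizontal axis) for the members of the 26 gene lists. Red points are members called higher in females, blue points members called lower and grey points the rest; black bars are list medians and the dashed line is the median over all genes, -0.17. Most lists centre near that line, from glycosyltransferases at -0.90 to Kunitz-type inhibitors at 1.005.

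Among transcription factors, the 65 genes of the AP2/ERF list had 0 calls higher and 3 lower, 2 of them with TMM factors. Potri.001G079800.1 had 30 and 25 tags in females and 42 and 152 in males (-2.12), and its call ended with TMM factors. Potri.015G054500.1 had 12 and 2 in females and 4 and 15 in males (-4.49). One member of the list, a lysosomal thiol reductase, was taken in by its wording alone. The 28 NAC factors had 1 call each way, the second being Potri.004G049300.1, with 10 and 0 in females and 4 and 11 in males. The 9 WRKY factors had 0 calls and a median of -0.61, with 1 member at 100 tags or more. That member, Potri.003G169100.1, went the other way without a call. It had 16 and 24 in females and 67 and 30 in males (1.74, interval 0.54 to 2.95). The 40 bHLH, MADS, GRAS and other factors had 1 call higher, a GRAS gene (Potri.016G025900.1) with 3 and 9 in females and 8 and 0 in males.

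Auxin genes (37, with a median of -0.21) had 0 calls by header totals. With TMM factors 1 was called higher, the SAUR gene Potri.001G306300.1, with 103 and 85 tags in females and 26 and 4 in males. Of 23 other hormone genes 1 was called higher, a gibberellin 2-oxidase (Potri.001G378400.1), which inactivates gibberellin, with 17 and 26 in females and 9 and 0 in males. The 2 called lower both act on cytokinin.

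Cytokinin, the hormone of cell division and leaf longevity, was then followed through all 16 genes whose description names it or a response regulator, a list chosen after the values were seen. Of these 0 were called higher and 5 lower, 4 with TMM factors, with a median of -0.58. Among all genes 1.91% were called lower (1.31% with TMM factors), with a median of -0.17. Since the list was chosen after the values were seen, nothing is read from that contrast. Type-A response regulators are induced by cytokinin and dampen its signal, and 3 of the 4 tested were called lower in females. Potri.006G041100.1 had 76 and 54 tags in females and 25 and 103 in males, a log2 ratio of ratios of -2.54 (interval -3.41 to -1.68). Potri.008G193000.1 had 124 and 89 in females and 18 and 53 in males (-2.04), a call that ended with TMM factors. Potri.001G027000.1 had 6 and 2 in females and 2 and 21 in males (-4.98, interval -8.82 to -1.42). In all 3, the male libraries had more tags under ambient UV-B and the female ones fewer. The fourth, Potri.002G082200.1, did not follow them: it had 10 and 34 in females and 8 and 27 in males, a value of 0.01.

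The other calls of the cytokinin list were an isopentenyltransferase (Potri.008G202200.1), which makes cytokinin, with 19 and 2 tags in females and 14 and 20 in males (-3.77), and a cytokinin oxidase (Potri.005G232300.1), which breaks it down, with 6 and 3 in females and 0 and 14 in males (at most -3.23). These rest on few tags. Another isopentenyltransferase, Potri.010G030500.1, was not called (-0.49, interval -1.20 to 0.21). It had 87 and 72 tags in females and 62 and 72 in males. The most abundant member, cytokinin oxidase Potri.002G030500.1, had 2907 and 2034 in females and 1323 and 777 in males. It was lower under ambient UV-B in both sexes, with a log2 ratio of ratios of 0.25 (interval 0.10 to 0.40).

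Among transporters, Potri.005G256100.1, which takes up phosphate, was the single call of 39 nutrient and sugar transporters. It had 53 and 108 tags in females and 151 and 91 in males, a log2 ratio of ratios of 1.75 (interval 1.12 to 2.39). The most abundant of them, an ammonium transporter (Potri.008G173800.1), had 560 and 569 in females and 75 and 159 in males (-1.06, interval -1.52 to -0.62). The 47 ABC and multidrug transporters had 0 calls, and their most abundant member, Potri.003G034700.1, had 121 and 370 in females and 111 and 161 in males (1.07). Of 16 aquaporins, water channels, 1 of the TIP subfamily was called lower, Potri.004G216500.1, with 18 and 0 in females and 63 and 34 in males. That call ended with TMM factors and with the 0 set to 1 tag.

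The 92 cytochromes P450 had 3 calls higher and 3 lower, 6.52% in all, with a median of 0.11. Beside those described, Potri.016G031800.1 was called lower, with 213 and 135 tags in females and 73 and 171 in males (-1.89), as was Potri.002G042200.1, with 11 and 2 in females and 2 and 16 in males (-5.46). The 79 proteasome, ubiquitin and F-box genes had 2 calls lower, both F-box genes. The second was Potri.008G176000.1, with 37 and 10 in females and 7 and 25 in males (-3.73). The 18 ribosomal protein genes had 1 call each way, S3 and S9. There were 0 calls among 7 heat shock genes (median -0.10), 9 wax and fatty acid genes (-0.46) and 8 sugar metabolism genes (-0.26).

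Genes of light sensing and UV repair were too few to describe as a group. The 4 found by description, a COP1-like ligase and phytochromes among them, had 0 calls. Phytochrome B2 (Potri.010G145900.2), a red light receptor, had 75 and 67 tags in females and 42 and 50 in males (-0.42, interval -1.23 to 0.39). Outside the lists, and named after its value was seen, a DNA-3-methyladenine glycosylase (Potri.010G137300.1), which removes damaged bases, had 34 and 2 in females and 26 and 40 in males (-4.71). The 26 histone genes had 2 calls lower by header totals, the H4-like Potri.007G013300.1 (442 and 278 in females, 186 and 339 in males, -1.54) and the H1 gene Potri.002G043100.1 (-2.33), and 0 with TMM factors. Among all genes 1.91% were called lower by header totals and 1.31% with TMM factors.

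By gene ontology terms with 20 to 500 members, 196 in all and partly overlapping, the shares called higher were largest for organelle organization (4 of 30 genes), glucan biosynthetic process (3 of 31), response to biotic stimulus (2 of 25), organ morphogenesis (2 of 28) and external encapsulating structure organization (2 of 33). All 4 calls in the first had a listed 0. By header totals 1.83% of all genes were called higher and 1.91% lower. The terms named are the extremes of 196, each with few calls, so nothing is read from their order. The shares called lower by header totals were largest for glucan biosynthetic process (3 of 31), photoperiodism (2 of 22), transfer of hexosyl groups (3 of 37, 2 with TMM factors), hormone-mediated signaling pathway (5 of 63, 4 with TMM factors), and, at the same share, DNA repair (2 of 30) and response to carbohydrate stimulus (3 of 45, 1 with TMM factors). The 5 in hormone-mediated signaling include the response regulators Potri.006G041100.1 and Potri.008G193000.1, of which the second ended with TMM factors. By header totals no gene was called higher in 66 terms, and none was called lower in 86. Glucan biosynthesis, the making of cellulose, starch and related chains, appears on both sides. Beside the cellulose synthase, its calls include Potri.010G156700.1, without a description, with 25 and 127 tags in females and 122 and 94 in males (2.72), and Potri.001G022700.1, with 68 and 30 in females and 78 and 144 in males (-2.07).

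Calls were spread over the chromosomes named in the gene identifiers. By header totals the share called ran from 1.76% on chromosome 3 to 4.99% on chromosome 16. Chromosome 19, which carries the sex-determining region in several poplars, had 7 calls higher and 7 lower among 284 genes, 4.93% (8 and 6 with TMM factors). The share over all genes was 3.74%, and chromosomes 17 (4.94%) and 10 (4.82%) lay as high as chromosome 19. Genes with no chromosome in the identifier had 6.13%. The most abundant gene of the table, Potri.005G190100.1, which has no database hit, was called lower, with 30300 and 13116 tags in females and 38016 and 38864 in males (-1.24), a call that ended with DESeq2 size factors. It was named after its value was seen. It held 2.10% of the listed tags in females under ambient UV-B and 4.59% to 5.97% in the other libraries.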

How the data were processed

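Per the labels' protocols, cDNA primed on poly(A) was digested with NlaIII, then with MmeI, and 17 bp tags were sequenced and counted, 1 library per group. The authors deposited raw tag counts per gene with each library total in the column header, and a scaled column. The scaled column that the authors deposited as TPM holds CPM without length correction: recomputing it from the counts matched 100% within 0.0051. Tag assignment and genome build were not given in the sources used here. Near-identical gene copies may therefore share or lose tags, and no coordinates are printed.

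Groups came from the labels. Genes under 10 summed counts were left out. The ratio of ratios was computed on counts over header totals and again with TMM factors (edgeR 4.0.16). DESeq2 1.42.0 size factors were an alternative (R 4.3.3, Python with scipy 1.17.1). Each interval is the exact 95% conditional one (noncentral hypergeometric), checked on simulated data. A call needs the whole interval beyond 2-fold. A 0 is given as a bound at 3 counts. No test or p-value was used.

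An informative description is one that names a protein. Genes were named by rule: the 10 highest and 10 lowest with such a description, and the 2 highest and 2 lowest without one, all with at least 50 counts in 1 library and called under both scalings; from each list, the largest call each way by header totals with at least 50 counts in 1 library; and the most abundant member of each list, called or not. Some of the most abundant members are not described above, and none of those was called. Their log2 ratios of ratios include 0.90 (auxin), 0.74 (NAC), 0.35 (immune receptors) and 0.15 (ribosomal proteins). On the other side they include -0.33 (cytochrome P450), -0.54 (aquaporins), -0.60 (AP2/ERF) and -0.71 (ubiquitin). Other genes named were chosen after their values were seen, as were the cytokinin, antenna, histone and RNA silencing lists. All members and lists were chosen with earlier results of these data known. The 31 lists are word patterns on the descriptions, and the 5 with fewer than 5 members are light and repair, MYB, carbon fixation, dehydrin and metallothionein genes. All 5 had 0 calls.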

Additional observations from a re-analysis of the deposited data

Results flagged for a closer look

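By header totals, in 15 called genes named by rule the sexes moved opposite ways, each beyond its own counting interval. The difference between the sexes was not tested, since each group is 1 pooled library. In 8 of them the UV-B ratio was lower in females, with log2 ratios of ratios of -5.82 for polyphenol oxidase Potri.011G108300.1, at most -5.32 for Potri.012G065500.1, -3.99 for the Kunitz-type inhibitor Potri.019G124400.2, -2.98 for the vesicle-associated protein Potri.013G031400.1, -2.58 for ribosomal protein S9 Potri.012G144700.1, -2.31 for the F-box gene Potri.015G138600.1, -1.45 for pectinesterase Potri.014G149700.1 and -1.33 for Lhcb8 Potri.008G067300.1. In the other 7 it was higher in females. These were disease resistance protein Potri.012G074700.1 (1.73), the phosphate transporter Potri.005G256100.1 (1.75), cytochrome P450 Potri.007G115500.1 (2.91), Potri.002G196100.1 (4.45), the Kunitz-type inhibitor Potri.001G309900.1 (5.07), the RNA-dependent RNA polymerase Potri.006G253500.1 (7.26) and GSTU20 Potri.008G175000.1 (8.33). Pectinesterase and Lhcb8 are the ones with the most tags. TMM factors lower the male log2 UV-B ratios by 0.199 and hardly move the female ones. The male lower limits were 0.11 for ribosomal protein S9 and 0.197 for Potri.012G065500.1 by header totals. With TMM factors these male intervals would include 0.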

How the results depend on the processing

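Against 197 higher and 205 lower calls, DESeq2 size factors gave 259 and 135, and the sums of the listed tags as totals 281 and 123. At least 50 counts left 100 and 127, and listed zeros set to 1 left 114 and 157. A stricter interval level left 37 and 45, and a 4-fold margin 37 and 38. An assumed, not measured, coefficient of variation of 0.3 between pools, added approximately, left 88 and 83. Genes with tags in every library, a choice made after seeing the data, gave 99 and 133. With no count filter, and with the entries of a locus summed, both counts stayed within 1.5 times. The median over all genes changed sign, from -0.17 to 0.024 with TMM factors, 0.034 with size factors and 0.091 with listed sums. It was -0.28 with at least 50 counts and -0.0031 with no filter. Of the 59 genes picked by the naming rule no called one changed sign. For the scalings this was set in advance, since a call lies beyond 2-fold and they add at most 0.265 on the log2 scale. Calls ended for Potri.001G079800.1 and Potri.004G216500.1 with TMM factors, size factors and listed sums, for the latter also with zeros set to 1, and for Potri.001G397200.1 and Lhcb8 with listed sums. The scalings add 1 constant to every value, and stricter settings admit fewer genes by construction. No paired analysis was possible because each group has 1 library, which also leaves no replicate to leave out. Depth limits most calls, since the median called gene had 52 tags (higher) or 96 (lower) over the 4 libraries.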
